A study of Homo sapiens with 2 samples.

Results

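The 10 Hippo pathway genes studied, MOB1A, MOB1B, STK3, STK4, LATS1, LATS2, SAV1, YAP1, WWTR1 and TEAD1, were read by gene symbol from a deposited table of 18930 genes, and 10 of 10 were listed with counts. The set was chosen by pathway membership together with the MOB1B read counts of these same 2 libraries, so that every difference given here is a description, without a p-value. RNA-seq was done once for a sample in the group DR and once for a sample in the group WT. A375, given as the source of both, is an established line from a human melanoma. The medium was DMEM by the labels and RPMI by the study's methods, in both with 10% fetal bovine serum. DR stands for cells made resistant to dacarbazine (DTIC), a drug that alkylates DNA, and WT for their wild-type control. The labels give treatment with the drug, spelled DITC there, for 105 days for both samples, the WT sample included. Each count column was assigned through the sample description, and the descriptions differ by 1 punctuation mark and do not say which is wild type. They are called the DR library and the WT library by these labels alone, and every direction depends on them.

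The Hippo pathway is a kinase cascade that restrains growth. The kinases MST2 and MST1, encoded by STK3 and STK4, bind the scaffold SAV1 and phosphorylate the adaptors MOB1A and MOB1B and the kinases LATS1 and LATS2. Active LATS kinases bound to MOB1 phosphorylate the coactivators YAP (YAP1) and TAZ (WWTR1) and keep them out of the nucleus, where they would otherwise join TEAD factors such as TEAD1 on DNA. YAP and TAZ are known for roles in solid tumours, melanoma among them, and are commonly silent in blood cell cancers such as myeloma.

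MOB1B was the member that differed most between the libraries, and it has a close paralog in MOB1A, so that the first question was whether their reads can be told apart. The first 180 coding bases of each gene are printed from the GENCODE release 29 transcripts, with the 37 bases that differ in capitals.
MOB1A: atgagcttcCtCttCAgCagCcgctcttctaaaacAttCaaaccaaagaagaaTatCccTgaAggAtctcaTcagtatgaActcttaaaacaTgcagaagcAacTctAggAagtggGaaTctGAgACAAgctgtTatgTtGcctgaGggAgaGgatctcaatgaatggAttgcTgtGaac
MOB1B: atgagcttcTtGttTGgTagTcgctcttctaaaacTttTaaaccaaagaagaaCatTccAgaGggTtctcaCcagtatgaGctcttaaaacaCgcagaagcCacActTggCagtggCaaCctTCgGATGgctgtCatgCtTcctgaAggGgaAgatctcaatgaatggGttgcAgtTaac
Over the whole coding sequence 516 of 648 bases were identical (79.6%), and the longest identical run was 17 bases. Of the 7194 stretches of 50 bases, a length chosen for this comparison, in the protein-coding MOB1B transcripts, 0 occurred in a MOB1A transcript. The coding sequences of the other pairs were 76.1% (STK3 and STK4), 64.3% (LATS1 and LATS2) and 69.1% (YAP1 and WWTR1) identical where aligned, and these pairs shared 0 stretches of 50 bases as well. SAV1 was the member with most such stretches in other genes (5.28%, mainly in AC093890.1). For MOB1B this share was 0.0834%. Annotated exons of MOB1B overlap those of DCK on the same strand, where reads cannot be told apart by strand. The share of 0.0834% covers all other annotated genes, DCK included, so protein-coding MOB1B transcripts had hardly any stretch of 50 bases in common with DCK.

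The 4 members MOB1B, LATS2, YAP1 and WWTR1 differed by at least 1 on the log2 scale, and the 250 bases before their annotated starts are printed from the RefSeq promoter table (GRCh38.p14), with the letters GGAATG, the core of the sequence that TEAD factors bind, in capitals where present on either strand. Each is written in the direction of the gene, and both entries of WWTR1, which has 2 starts in the table, are shown.
MOB1B, chr4:70902119-70902368, plus strand: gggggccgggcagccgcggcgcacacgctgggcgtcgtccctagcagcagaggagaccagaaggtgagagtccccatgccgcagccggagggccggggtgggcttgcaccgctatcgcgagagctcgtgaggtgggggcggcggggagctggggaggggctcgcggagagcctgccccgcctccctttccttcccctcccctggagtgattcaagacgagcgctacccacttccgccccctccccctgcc
LATS2, chr13:21061587-21061836, minus strand: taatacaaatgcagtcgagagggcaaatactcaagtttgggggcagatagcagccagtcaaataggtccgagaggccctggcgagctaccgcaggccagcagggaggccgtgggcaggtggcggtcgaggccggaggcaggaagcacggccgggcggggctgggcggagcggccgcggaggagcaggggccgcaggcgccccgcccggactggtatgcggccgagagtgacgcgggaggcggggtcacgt
YAP1, chr11:102110197-102110446, plus strand: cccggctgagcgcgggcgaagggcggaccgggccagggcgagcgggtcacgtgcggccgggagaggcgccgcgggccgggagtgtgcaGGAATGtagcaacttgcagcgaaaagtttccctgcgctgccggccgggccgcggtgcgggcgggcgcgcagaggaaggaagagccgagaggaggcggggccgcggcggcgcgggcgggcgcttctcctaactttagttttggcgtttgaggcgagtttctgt
WWTR1, chr3:149658026-149658275, minus strand: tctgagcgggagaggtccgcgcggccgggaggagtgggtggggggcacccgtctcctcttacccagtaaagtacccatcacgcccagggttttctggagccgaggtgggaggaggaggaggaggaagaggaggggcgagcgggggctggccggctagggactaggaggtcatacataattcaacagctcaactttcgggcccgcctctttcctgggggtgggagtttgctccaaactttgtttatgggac
WWTR1, chr3:149703274-149703523, minus strand: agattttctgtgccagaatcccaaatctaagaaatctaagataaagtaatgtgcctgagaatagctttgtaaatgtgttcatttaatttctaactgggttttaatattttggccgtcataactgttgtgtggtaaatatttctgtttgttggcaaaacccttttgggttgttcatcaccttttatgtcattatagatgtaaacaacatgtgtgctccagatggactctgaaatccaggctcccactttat
The table held 11 entries for 8 of the 10 members, and of TEAD1 and STK3 none was used. GGAATG or its reverse complement CATTCC was in 1 of the 11 entries, that of YAP1, 156 bases before the start, against 11.9% of all 35116 entries. The YAP1 match reads on as GGAATGTA, which 0.461% of all entries hold on either strand and which contains the shorter motif. The MOB1B stretch is 72.8% G and C with 22 CG pairs, against medians of 58% and 11 over all entries. Those of YAP1 (72% and 36) and LATS2 (69.6% and 25) also lie above these medians. The WWTR1 entries differ, with 62% and 13 in the first and 35.2% and 1 in the second. A match is a description of letters, and it is not a measured binding site.

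The estimated reads per gene summed to 54878355 in the DR library and 35294670 in the WT library. Levels are given in CPM, reads relative to the size of the library after edgeR's TMM scaling, and, where genes are compared, in TPM, which divide the reads by the deposited gene length and scale both libraries to the same total. Fold changes are DR over WT on the scale of log2 (CPM + 0.5), and a gene is called higher or lower when its value reaches 1 or -1. The sum of both libraries had to reach 10 reads, which 16210 genes did, and these are the tested genes. Each interval is a 95% exact interval of read counting alone, and with 1 library per condition no spread between samples is known. The labelled cell type was checked against marker lists. Of 12 melanocytic genes 10 had counts, with summed levels of 42.7 CPM (DR) and 42.0 CPM (WT), of which MITF gave 34.6 and 34.7 CPM. SOX10, a defining factor of the lineage, had 3 and 0 reads, and TYRP1, a pigment enzyme, had 0 and 17. All 12 genes of a plasma cell list had counts, summing to 5194 and 6257 CPM, and 10 of them lay above the median level of tested genes in each library. A list of 8 dedifferentiated melanoma genes summed to 5041 and 7609 CPM, of which FN1 alone gave 4878 and 6414 CPM. Of these 8 genes 2 lay above the median level in each library. Per length MITF had 8.13 TPM (DR) and 8.27 TPM (WT), under the medians of 14.4 and 14.5 TPM. Of the 6 tested melanocytic genes 0 lay above the median level in either library. Melanocytic genes were thus low in both libraries, and plasma cell genes were abundant in both.

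MOB1B (NCBI Gene 92597), an adaptor that binds and activates LATS kinases, had 661 reads in the DR library and 9380 in the WT library. This was 11.9 CPM against 269 CPM, 22.6-fold lower in DR (interval 20.9 to 24.5). The WT library was thus high and the DR library low in this gene, and neither was near the 3 reads taken as a floor (0.054 and 0.0861 CPM). On the log2 scale the difference was -4.44 (interval -4.55 to -4.33). Among the 9860 tested genes that averaged 10 CPM or more, MOB1B ranked 19 from the lowest fold change, and 18 genes reached that size in the other direction. Its level per length stood at percentile 87.9 of tested genes in the WT library and at percentile 32.8 in the DR library.

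MOB1A (NCBI Gene 55233), which shares the role of MOB1B, had 9704 reads in the DR library and 4866 in the WT library. These were 175 and 139.6 CPM, a log2 fold change of 0.32 (interval 0.27 to 0.37), under the size for a call and opposite in direction to MOB1B. The balance between the paralogs, which no scaling of the libraries can alter, therefore turned over. MOB1B had 6.38% of the reads of the pair in the DR library (interval 5.91 to 6.86) and 65.8% in the WT library (interval 65.1 to 66.6). Per length, MOB1A was 18.7-fold above MOB1B in the DR library, while in the WT library MOB1B was 1.51-fold above MOB1A. The summed reads of both paralogs were 187 CPM (DR) and 409 CPM (WT), a log2 fold change of -1.13 (interval -1.17 to -1.09), so that the summed level was lower in the DR library.

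The other MOB genes were set beside this pair. MOB3A had 115 TPM in the DR library and 93.6 TPM in the WT library, the highest level in the family in DR and next to MOB1B in WT. MOB2, a partner of the NDR kinases, gave 8.12% and 5.02% of the transcripts of the family per length. MOB4, a subunit of the STRIPAK phosphatase complex, differed by -0.11 on the log2 scale. MOB3B had 0.776 and 0.179 TPM and was called higher in DR. Of all MOB transcripts per length, MOB1B made up 1.70% in the DR library and 32.5% in the WT library, and the summed level of the family was 249 and 298 TPM.

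**Figure D1:**
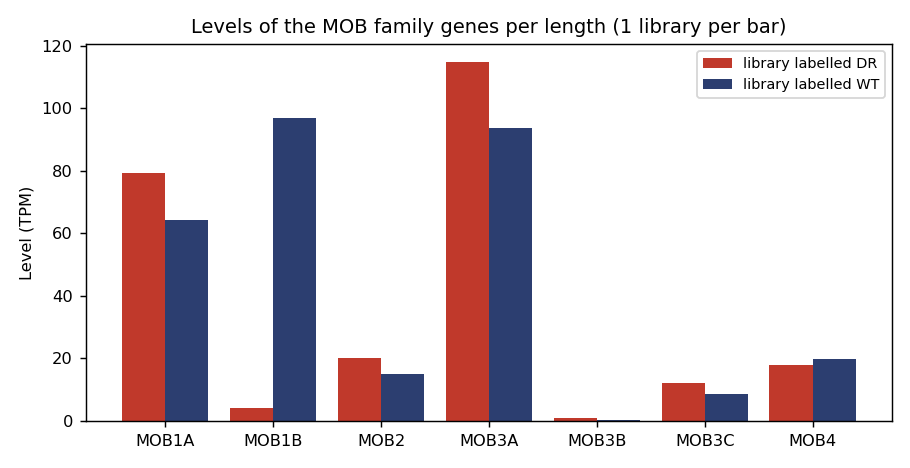
Level per length (TPM, vertical axis from 0) of the 7 MOB family genes in the DR library (red) and the WT library (blue), 1 library per bar and no replicates. MOB1B stands at 4.24 TPM in DR and 97.1 TPM in WT, while MOB1A and MOB3A are somewhat higher in DR.

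Over the members, 1 of 10 was called lower in the DR library, where 4.16% of all tested genes were, and 3 of 10 were called higher, where 7.48% were. The member called lower was MOB1B, whose difference had chosen the set, and those called higher were WWTR1, YAP1 and LATS2. All 10 passed the filter on reads. The median log2 fold change of the members was 0.22, against 0.01 for all tested genes, and 6 members lay above 0 and 4 below. Closest to the size for a call were STK3 (-0.91), just short of it, and YAP1 (1.15), just past it.

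**Figure D2:**
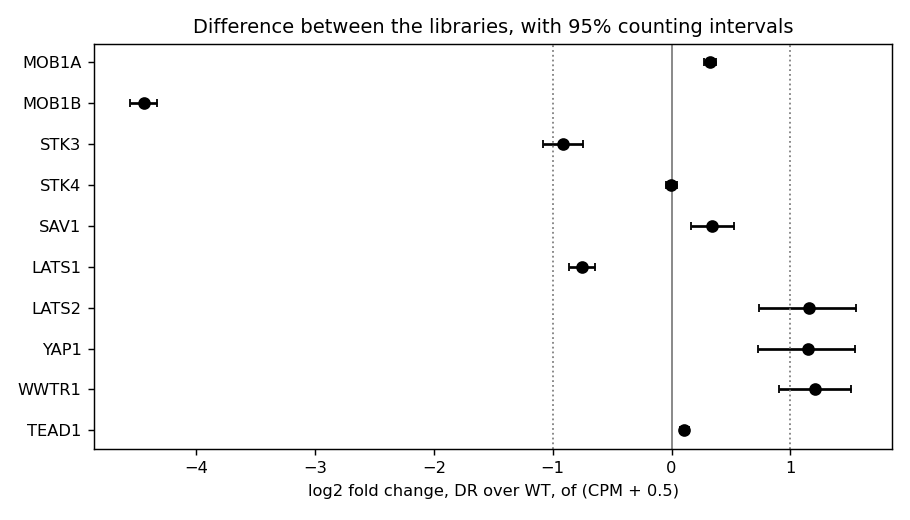
Log2 fold change of (CPM + 0.5), DR over WT, of the 10 members (horizontal axis) with 95% counting intervals, and dotted lines at the size for a call. MOB1B lies at -4.44, STK3 and LATS1 lie between -1 and 0, and the intervals of LATS2, YAP1 and WWTR1 reach across 1.

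The upstream kinases differed from each other. STK4 (NCBI Gene 6789) had 9171 reads in the DR library and 5756 in the WT library, which were 165 CPM in each. Its log2 fold change was -0.00043 (interval -0.05 to 0.05), the smallest in size of the members. STK3 (NCBI Gene 6788) had 479 and 581 reads, or 8.62 and 16.7 CPM, a log2 fold change of -0.91 (interval -1.08 to -0.74). The DR library was the lower in STK3 and had the same level of STK4, the paralog that gave most of the reads. Per length, STK4 was 8.52-fold above STK3 in the DR library and 4.41-fold above it in the WT library. SAV1 (NCBI Gene 60485), the scaffold of these kinases, had 719 and 352 reads, or 12.9 and 10.1 CPM, with a log2 fold change of 0.34 (interval 0.16 to 0.52). Its exons overlap those of ATL1 on the opposite strand, and since it is not stated whether strand was used, reads of the 2 genes cannot be told apart where they overlap. The same limit holds for STK3, LATS1, YAP1 and WWTR1, each of which has 1 annotated antisense gene over its exons.

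Of the LATS kinases, which phosphorylate YAP and TAZ, LATS1 (NCBI Gene 9113) was the main transcript in both libraries. It had 1260 reads in the DR library and 1344 in the WT library, or 22.7 and 38.6 CPM, a log2 fold change of -0.75 (interval -0.86 to -0.64). LATS2 (NCBI Gene 26524), which is itself a target gene of YAP and TAZ, had 116 and 23 reads. These were 2.09 and 0.66 CPM, 3.16-fold higher in DR (interval 2.01 to 5.19) and 1.16 on the log2 scale (interval 0.73 to 1.55). The paralogs thus differed in opposite directions, LATS1 lower and LATS2 higher in the DR library. LATS2 had 8.43% of the reads of the pair in the DR library (interval 7.02 to 10.0) and 1.68% in the WT library (interval 1.07 to 2.51), so that LATS1 gave most reads of the pair in each.

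Both coactivators had few reads. YAP1 (NCBI Gene 10413) had 122 reads in the DR library and 25 in the WT library, or 2.20 and 0.717 CPM. This was 3.06-fold higher in DR (interval 1.98 to 4.92) and 1.15 on the log2 scale (interval 0.73 to 1.54). WWTR1 (NCBI Gene 25937), which encodes TAZ, had 334 and 81 reads, or 6.01 and 2.32 CPM. It was 2.59-fold higher in DR (interval 2.02 to 3.34) and 1.21 on the log2 scale (interval 0.90 to 1.51). The DR library was the higher in both genes, yet both stayed low in it, at percentiles 17.4 (YAP1) and 28.0 (WWTR1) of tested genes by level per length, and at 10.0 and 20.4 in the WT library. The share of YAP1 in the reads of the pair was 26.8% (interval 22.7 to 31.1) and 23.6% (interval 15.9 to 32.8), with intervals that overlap. With a pseudocount of 5 CPM, or with the whole counting interval asked to lie beyond 1, 0 members were called higher, so that the calls of YAP1, WWTR1 and LATS2 depend on how low reads are treated.

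Markers of fibroblasts were read beside these genes. Of 6 listed, DCN and LUM had no count and the other 4 had counts summing to 14.1 CPM in the DR library and 3.18 CPM in the WT library, and the 2 that were tested, COL1A1 (572 and 109 reads) and PDGFRB (209 and 1 reads), were called higher in DR. PDGFRB passed the filter on reads only through the DR library, in which it is high, so its call is no independent support. COL1A2 had 1 and 0 reads and COL3A1 had 0 and 1. In the list of dedifferentiated melanoma markers 0 of 8 genes were called higher and 2 (25%) were called lower in DR, among them VIM at 139 and 1166 CPM. In the plasma cell list 3 of 12 genes were called higher (25%) and 0 lower, with a median log2 fold change of 0.02. In the melanocytic list 0 of 6 tested genes were called in either direction. These counts stand against 7.48% of all tested genes called higher and 4.16% called lower. With the whole counting interval asked to lie beyond 1, 0 plasma cell genes were called. The 2 fibroblast genes and the 2 dedifferentiated melanoma genes were still called. Of all tested genes 5.13% were higher and 2.99% lower by that rule. The part of other cells in the low coactivator reads was not tested, and in bulk RNA fewer cells of a type and less RNA per cell cannot be told apart.

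TEAD1 (NCBI Gene 7003), the DNA-binding partner, had 13625 reads in the DR library and 7924 in the WT library, or 245 and 227 CPM. Its log2 fold change was 0.11 (interval 0.07 to 0.15). TEAD1 was therefore abundant and nearly level between the libraries while its coactivators were scarce. Per length, TEAD1 was 16.1-fold above the sum of YAP1 and WWTR1 in the DR library and 40.2-fold above it in the WT library. Among the TEAD genes TEAD1 gave 57.9% and 63.6% of the transcripts per length and TEAD4 34.8% and 30.0%.

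By level per length the order in the DR library ran from MOB1A (79.4 TPM) through TEAD1 (58.1), STK4 (57.6), SAV1 (9.04), LATS1 (8.18), STK3 (6.76), MOB1B (4.24), WWTR1 (2.69) and YAP1 (0.925) to LATS2 (0.849 TPM). Counting intervals of neighbours overlapped there for TEAD1 and STK4, for SAV1 and LATS1, and for YAP1 and LATS2. In the WT library MOB1B led (97.1 TPM), ahead of MOB1A (64.2), STK4 (58.3), TEAD1 (54.5), LATS1 (14.1), STK3 (13.2), SAV1 (7.15), WWTR1 (1.05), YAP1 (0.306) and LATS2 (0.272 TPM). Neighbours overlapped there for LATS1 and STK3 and for YAP1 and LATS2. MOB1B moved from first place to seventh, whereas the last 3 places were held by WWTR1, YAP1 and LATS2 in both libraries.

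**Figure D3:**
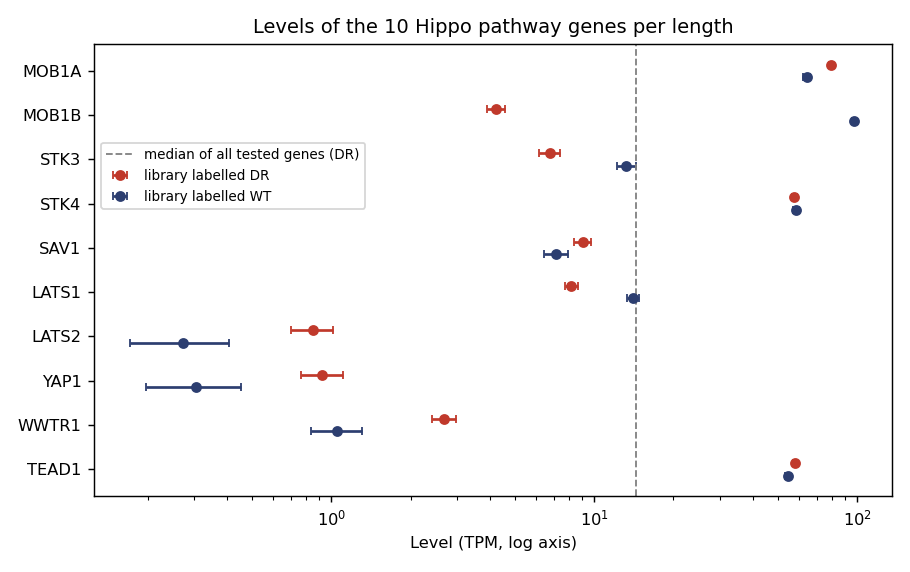
Level per length (TPM, log axis) of the 10 members in the DR library (red) and the WT library (blue), with 95% counting intervals and a dashed line at the median of tested genes in the DR library (14.4 TPM). MOB1A, STK4 and TEAD1 lie above the line in both libraries, MOB1B lies above it in WT and below it in DR, and WWTR1, YAP1 and LATS2 are the lowest in both.

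The rest of the pathway was described by 5 lists, written from general knowledge with earlier results of these data known. Their counts stand against 7.48% of all tested genes called higher and 4.16% called lower. The upstream regulators are genes of differing roles, many of which pass signals from cell junctions and the cytoskeleton to the kinases. Not all of them act on the pathway in the same direction. Of these genes 31 of 31 were tested, with 4 called higher (12.9%) and 5 lower (16.1%) in DR. Their median log2 fold change was 0.20, against 0.01 for all tested genes. FAT1, an atypical cadherin, had 10416 reads in the DR library and 73 in the WT library (log2 fold change 6.18, interval 5.91 to 6.46). TNIK, a kinase of the MAP4K family (2.20), and FRMD6, a FERM domain protein (2.09), were called higher and WWC2, a KIBRA family scaffold, was called lower (-2.80, with 303 and 1426 reads). NF2, the tumour suppressor merlin, had 59.4 and 53.5 CPM, and WWC1, which encodes KIBRA, had 56.7 and 35.8 CPM. The genes called in this list thus lay on both sides, and FAT1 had the largest difference in the 5 lists.

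The STRIPAK complex, a phosphatase assembly that removes activating phosphates from the MST kinases, had 1 gene called higher (5.88%), CTTNBP2NL (1.25), and 1 called lower, CTTNBP2 (-1.92), of 17 tested, and a median of -0.11. Its core members STRN (70.2 and 70.1 CPM), SLMAP (68.2 and 86.1 CPM) and STK24 (107 and 132 CPM) were not called. In the list of other MOB proteins and NDR kinases, 2 of 7 genes were called higher (28.6%) and 0 lower, with a median of 0.43. Those were MOB3B (1.45, with 126 and 18 reads) and STK38L (1.03, with 4229 and 1289 reads), an NDR kinase that binds MOB1. STK38, its paralog, had 59.8 and 65.5 CPM. With a pseudocount of 5 CPM 0 genes of either list were called, and with the whole interval asked to lie beyond 1 only CTTNBP2 in the first list and MOB3B in the second were.

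Of the other TEAD factors and VGLL cofactors, 0 of 6 tested genes were called in either direction, and the median was 0.32. VGLL2, with 4 and 11 reads, is the gene called lower with a pseudocount of 0.1 CPM, and it is named after its values were seen. TEAD4 had 28.1 and 20.5 CPM, TEAD2 had 28 and 11 reads, and VGLL4, a repressor of TEAD factors, had 88.4 and 86.3 CPM. Target genes of YAP and TAZ had 6 of 20 tested genes called higher (30.0%) and 2 lower (10.0%) in DR, with a median of 0.26. Of those called higher, CCN1, CCN2, NT5E and RBMS3 (83 and 4 reads) had under 10 reads in the WT library. They passed the filter on reads only through the DR library, in which they are high, so their share is no independent support. LATS2 is also a member, and AMOTL2 and PTPN14 also stand among the upstream regulators. CCN2 and CCN1, the best-known targets, had few reads. CCN2 had 52 reads in the DR library and 0 in the WT library, at least 10.9-fold higher against a floor of 3 reads in the WT library, and CCN1 had 63 and 7 reads (log2 fold change 1.22, interval 0.76 to 1.55). NT5E, which encodes the ectoenzyme CD73 (2.41, with 179 and 7 reads) was called higher, as was LATS2, while ARHGEF17 (-1.69, with 276 and 597 reads) and CCDC80 (-1.03, with 166 and 231 reads) were called lower. ANKRD1 was listed without a count. With the whole interval asked to lie beyond 1, 3 targets were higher and 1 was lower, and with a pseudocount of 5 CPM 0 were higher and 1 was lower, against 5.13% and 2.99% of all tested genes by the first of these rules.

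**Figure D4:**
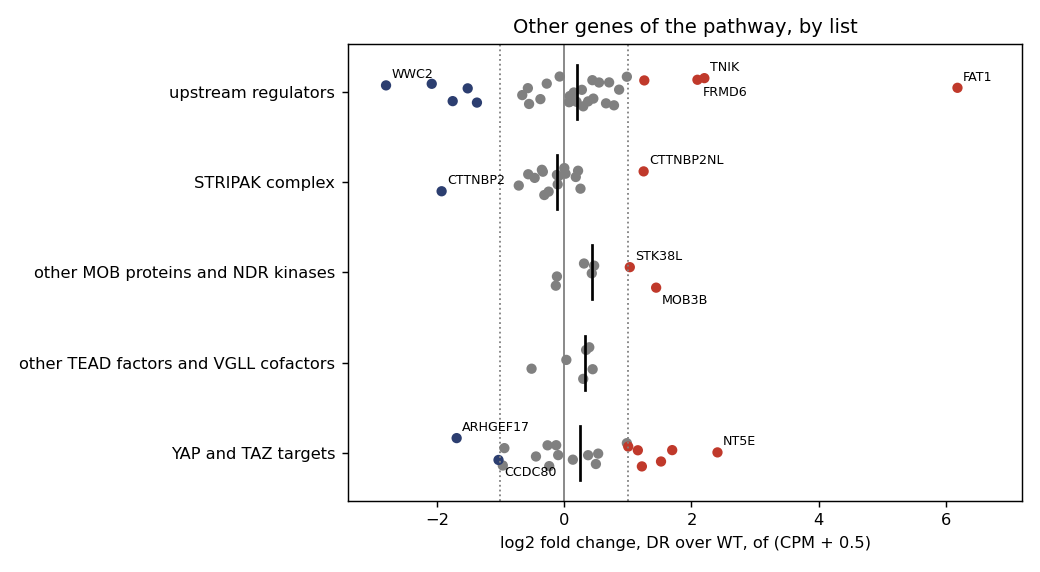
Log2 fold change of (CPM + 0.5), DR over WT (horizontal axis), of each tested gene in the 5 lists, with called genes in red (higher in DR) and blue (lower), a black bar at the median of each list and dotted lines at the size for a call. Most genes lie between -1 and 1, with FAT1 at 6.18 and WWC2 at -2.80 at the ends.

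The position of MOB1B was compared with its neighbours in the RefSeq gene order of chromosome 4. The 3 genes with counts before it, UTP3 (-1.41), RUFY3 (-0.83) and GRSF1 (-1.61), were all lower in the DR library on the log2 scale. After it came DCK (0.14), whose annotated exons overlap those of MOB1B on the same strand, SLC4A4 (1.43) and GC, which had 1 and 0 reads. GRSF1, an RNA-binding protein of mitochondria, had 6639 and 12731 reads, and DCK, a kinase of deoxynucleosides, had 2597 and 1477. In a wider window of 10 tested genes to each side, chosen after these values had been seen, 9 of 10 before MOB1B and 3 of 10 after it lay below 0, with medians of -0.72 and 0.16. Counting intervals reached across 0 for UGT2B4, SULT1E1 and PRR27 before MOB1B and for NPFFR2 and ALB after it. None of these had more than 22 reads in a library, so that their signs are not settled. Over the whole chromosome 368 of 582 tested genes lay below 0, against 7933 of 16210 over all tested genes. On chromosome 4, 146 of the 233 before MOB1B and 221 of the 348 after it lay below 0. JCHAIN, the joining chain of immunoglobulins made by plasma cells, was among the genes before it (-0.54). The median of the chromosome was -0.18, with 44 of 582 called lower and 59 higher. Over all tested genes the median was 0.01, with 674 of 16210 called lower (4.16%) and 1212 higher (7.48%). No neighbour in the window came near the difference of MOB1B.

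**Figure D5:**
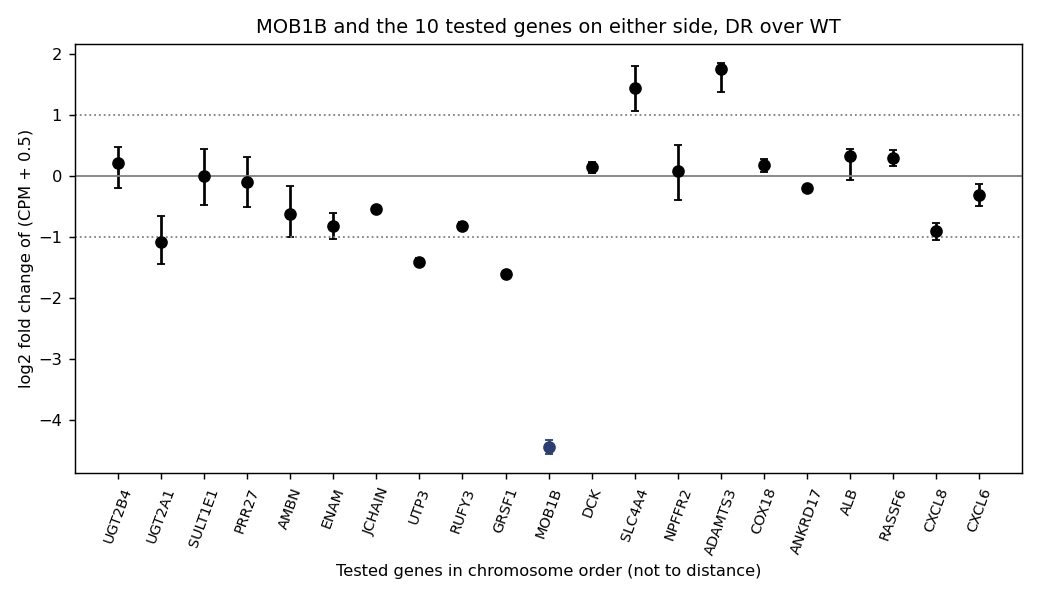
Log2 fold change of (CPM + 0.5), DR over WT (vertical axis), of MOB1B (blue) and the 10 tested genes on either side in chromosome order, with 95% counting intervals and dotted lines at the size for a call. Of the genes to the left of MOB1B 9 of 10 lie below 0, and of those to the right 3 of 10. Some genes on each side have intervals that reach across 0.

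The genes whose 2 values lay closest to those of MOB1B were found by the distance of log2 (CPM + 0.5) over the 2 libraries. They were MYBPC2, a myosin-binding protein gene (509 and 10403 reads, distance 0.39), CCDC88A, which encodes the actin-binding protein girdin (724 and 5287 reads, distance 0.83), NBEAL1 (distance 0.999), MACROD2 (distance 1.11) and SPN, which encodes the leukocyte sialoglycoprotein CD43 (distance 1.20). Their log2 fold changes ran from -4.95 for MYBPC2 to -3.13 for NBEAL1. With only 2 libraries such a likeness says no more than that these genes were also low in DR and high in WT.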

How the data were processed

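RNA-seq was measured in 1 DR and 1 WT sample. The authors deposited 1 table of estimated counts per gene, not scaled for library size, with gene lengths. The submitters' processing notes name Bowtie 0.12.2 and the build hg19, and the counting tool, its annotation and its use of strand are not given in the sources used here. Columns of the authors' comparison (a log2 ratio with its p-value and q-value) were not used. Of 18930 genes, 663 had no count. The estimated counts, fractional for 9108 genes and for 7 of the 10 members, were rounded to whole numbers. Libraries were scaled with edgeR 4.0.16 (R 4.3.3, TMM factors 1.01 and 0.988), and 2057 genes whose reads in both libraries summed to under 10 were left out. Fold changes used a pseudocount of 0.5 CPM and understate those of low genes. Intervals (95%) follow Clopper and Pearson for fold changes and shares and are exact Poisson for a level, computed with Python 3.11.15 and SciPy 1.17.1. Reads carry no molecular identifiers, so they cover counting error only. With 1 library per group no test of the condition could be fitted and no p-value is given. The computation was checked on simulated counts.

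The members and lists were chosen with earlier results of these data known. Named genes are the members, and of each list the called genes with the 4 largest fold changes at a mean of at least 1 CPM and up to 3 well-known genes. The 5 genes nearest MOB1B and the 3 on either side of it were named as well. By NCBI Gene ID, 18583 genes were found in the GRCh38.p14 table of RefSeq, used for current names and gene order only. Its promoter coordinates are not those of the build of the counts. Alternatives were scaling by library totals or by DESeq2 1.42.0 size factors, a minimum of 50 reads or none, pseudocounts of 0.1 and 5 CPM, a call on the whole interval, unrounded counts, and summed MOB1 paralogs.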

Additional observations from a re-analysis of the deposited data

How the results depend on the processing

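No paired analysis was possible because there was 1 library per group, and for the same reason no library could be left out. Scaling by library totals or DESeq2 size factors, a minimum of 50 reads or none, unrounded counts and a pseudocount of 0.1 CPM left 3 members called higher and 1 lower, and kept the numbers over all genes and the total over the 5 lists within 1.5 times. Single lists moved more, with 1 YAP and TAZ target lower in place of 2 under library totals and 1 TEAD or VGLL gene lower in place of 0 with a pseudocount of 0.1 CPM. A pseudocount of 5 CPM gave 0 members higher, 423 genes higher and 333 lower in place of 1212 and 674, and 9 list genes called in place of 21, as a larger pseudocount draws low genes towards 0 by construction. With the whole counting interval asked to lie beyond 1, 0 members were called higher and 1 lower. The log2 fold change of MOB1B ran from -4.49 to -4.02 over the scaling, filter, pseudocount and rounding settings. YAP1 ran from 0.33 to 1.49, LATS2 from 0.32 to 1.53 and WWTR1 from 0.59 to 1.33. STK4 was the only member to change sign, between -0.0033 and 0.035. Depth limits YAP1 and LATS2 most, with 25 and 23 reads in the WT library.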
